A study of Mus musculus with 15 samples.

Results

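Whole corneas of mice without an Opa1 mutation were compared between 6 and 3 months of age. The comparison took 7 of the 15 cornea RNA libraries: the 4 titled OPA1+/+ at 3 months and the 3 titled OPA1+/+ at 6 months. The other 8 libraries were OPA1+/- corneas, 4 at each age, with a reduced dose of the gene for OPA1, a GTPase that fuses the inner membranes of mitochondria. Of 55357 gene identifiers, the 15258 with 10 or more counts in 3 or more of the 7 OPA1+/+ libraries were tested. The labels give tissue, age and genotype. They name no treatment, strain, sex, hour of dissection or number of animals per library. Since nothing ties a replicate to a separate animal, the p-values measure the spread between libraries, which may be technical in part.

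The cornea is the clear front wall of the eye. Its surface is a layered epithelium that is renewed from the limbus, its bulk is a stroma of ordered collagen fibrils kept by keratocytes, and its inner face is an endothelium that pumps fluid out of the stroma. Corneal cells also run a circadian clock. In that loop CLOCK or NPAS2 pairs with ARNTL (BMAL1) and switches on the Per, Cry and Nr1d genes and the output factors Dbp, Tef and Hlf, and the products of the Per, Cry and Nr1d genes then shut the loop down, so that the levels of these transcripts move over each day.

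The 7 libraries held 11673240 to 13854655 counted reads, and 3 counts, taken as the floor of detection, equalled 0.217 to 0.257 CPM, counts scaled to a common library total. Correlations of log2 CPM were 0.9857 to 0.9916 within an age (9 pairs) and 0.9861 to 0.9891 between ages (12 pairs). By this measure the ages did not form separate blocks. The first principal component carried 29.2% of the variance and set replicates 3 and 4 at 3 months apart from the other 5 libraries. The ages did not overlap on it, with scores of -3.49, -2.25, 14.1 and 11.6 at 3 months and -4.48, -8.83 and -6.61 at 6 months. Opa1 stood at 70.9, 65.2, 69.3 and 66.8 normalised CPM at 3 months and 67.8, 66.6 and 73.2 at 6 months (log2 fold change 0.02 ± 0.06 SE, adjusted p = 0.941). It was lower in the OPA1+/- libraries, at 50.9 ± 5.09 (SD, n = 4) and 47.9 ± 1.09 (SD, n = 4). Krt12, the cornea-specific keratin, reached 25997 to 33028 CPM in the 7 libraries. Summed CPM of 18 retina genes was 203 in OPA1+/+ 6 months replicate 1 and 206.2 in OPA1+/- 3 months replicate 4, against 15.3 to 35.24 in the other 13 libraries.

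Between 6 and 3 months 5 of the 15258 genes passed an adjusted p of 0.05 (0.0328%), of which 2 were higher (0.0131%) and 3 lower (0.0197%) at 6 months. The 3 that fell were Tef and Per3, a transcription factor and a repressor of the clock system, and Chsy3, an enzyme that builds chondroitin sulfate chains. The 2 that rose were Csmd2, a large membrane protein with CUB and sushi domains, and a short RNA gene known in the files only as ENSMUSG00002076161. At an unadjusted p under 0.05 there were 1563 genes (10.2%), 736 higher (4.82%) and 827 lower (5.42%). The median absolute log2 fold change over all genes was 0.09. In a bulk tissue, fewer cells of a type and less RNA per cell cannot be told apart, here and in what follows.

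Tef (chromosome 15, 81686622 to 81711064, plus strand, GENCODE vM28 coordinates) stood at 307, 321, 330 and 367 CPM at 3 months and at 254, 228 and 246 at 6 months. All 6-month libraries lay under all 3-month ones (log2 fold change -0.45 ± 0.07, adjusted p = 0.0242). Per3 (chromosome 4, 151088109 to 151129122, minus strand) was the tightest of the 5, with 324, 336, 327 and 330 CPM against 255, 246 and 262 (-0.37 ± 0.06, adjusted p = 0.0326). Chsy3 (chromosome 18, 59308473 to 59669071, plus strand) had 28.7, 30.6, 31.1 and 37.6 CPM at 3 months and 20.0, 16.4 and 20.9 at 6 months. Its log2 fold change was -0.74 ± 0.12 (adjusted p = 0.0297), again without overlap. Csmd2 (chromosome 4, 127881650 to 128461449, plus strand) was a low transcript, at 2.47, 2.32, 2.53 and 2.14 CPM against 5.60, 5.35 and 4.03. It had the largest log2 fold change of the 5 genes, 1.08 ± 0.19 (adjusted p = 0.0401). ENSMUSG00002076161 (chromosome 9, 78082585 to 78082915, minus strand, 331 bases) was abundant, with 3475, 3140, 3004 and 3699 CPM against 4475, 4134 and 4276. It rose by 0.37 ± 0.06 (adjusted p = 0.0242). This gene has no symbol in the tables used and falls outside the rule for named genes, as does Egln3 below; both are given after their values were seen. The genes with the next smallest p were Cdkn1a, which encodes the cell cycle inhibitor p21, and Egln3, a prolyl hydroxylase of the hypoxia response. Cdkn1a read 99.5, 94.2, 105 and 104 CPM against 121, 131 and 136 (0.36 ± 0.06, adjusted p = 0.0505). It passed, as higher, without OPA1+/+ 6 months replicate 1. Egln3 read 667, 659, 615 and 635 CPM against 738, 860 and 839 (0.34 ± 0.06, adjusted p = 0.0505).

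**Figure D1:**
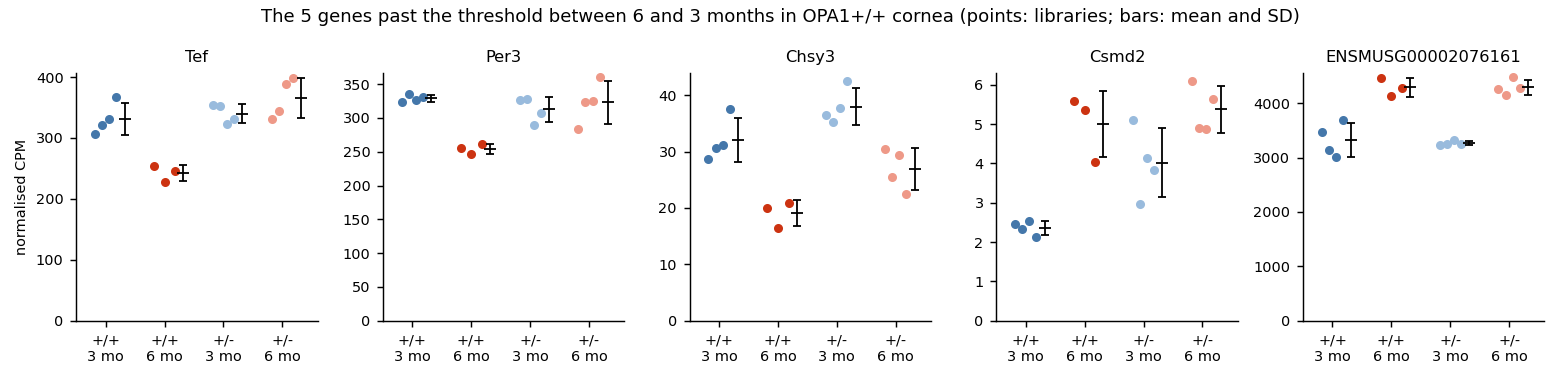
Normalised CPM (y axis, from 0) of the 5 genes past the threshold, by group (x axis); points are libraries, bars the mean and SD. In OPA1+/+ the 3 libraries at 6 months sit wholly below those at 3 months for Tef, Per3 and Chsy3 and wholly above them for Csmd2 and ENSMUSG00002076161; in OPA1+/- the ages separate for Chsy3 and ENSMUSG00002076161 and overlap for the other genes.

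The count of 5 rested on single libraries and on the shared spread. In a fit of the 7 OPA1+/+ libraries alone 2 genes passed, of which Per3 was the one shared with the 5, and the adjusted p of the other 4 was 0.062 to 0.143. Without OPA1+/+ 6 months replicate 1, the library with retina transcripts, 160 of 15100 genes passed (1.06%), 81 higher (0.536%) and 79 lower (0.523%), and all 5 genes were among them. With both libraries that held retina transcripts left out, 141 passed, again including all 5. Without 3 months replicate 2, 6 months replicate 2 or 6 months replicate 3, 0 genes passed. The count was 13, 12 and 8 without OPA1+/+ 3 months replicates 1, 3 and 4. The first and second of these sets held all 5 genes, and the third held 3 of them, without Per3 and Csmd2. Leaving out libraries that only share the spread moved it as well, to 34 and 3 without OPA1+/- 3 months replicates 2 and 3 and to 9, 3 and 12 without OPA1+/- 6 months replicates 1, 3 and 4. Several of the genes added without replicate 1 had that library near the 3-month values and the other 6-month libraries far from them. The next 4, named after their values were seen, are examples. Iffo2, an intermediate filament family member, read 70.4, 69.3, 73.3 and 73.8 CPM at 3 months and 70.6, 117 and 112 at 6 months. Mgp, matrix Gla protein, an inhibitor of calcification, read 15.6, 16.2, 15.3 and 20.9 CPM against 12.2, 6.54 and 5.74. In Sult1a1, a sulfotransferase, the values were 9.87, 12.1, 8.61 and 10.5 CPM against 8.24, 3.12 and 2.56. In Adgrg6, an adhesion receptor, they were 62, 58, 54.8 and 53.1 against 49.8, 34.6 and 32. In these 4 genes, replicate 1 was the 6-month library closest to 3 months, and whether its retina transcripts had a part in that was not tested.

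The OPA1+/- libraries gave the same contrast in 8 other libraries, none of them shared. There 15 genes passed (0.0983%), 5 higher (0.0328%) and 10 lower (0.0655%) at 6 months. Leaving out any 1 of those 8 libraries brought that count to between 1 and 4, and leaving out OPA1+/+ 6 months replicate 2 or 3 months replicate 3 brought it to 6 or 23. ENSMUSG00002076161 was the one gene past the threshold in both genotypes, 1 of 5 calls in OPA1+/+ and 1 of 15 in OPA1+/-. It stood at 3266 ± 41.8 CPM (SD, n = 4) at 3 months and 4294 ± 137 (SD, n = 4) at 6 months in OPA1+/- (log2 fold change 0.39, adjusted p = 0.0065). Of all 15258 genes, 8395 (55.0%) had the same sign in both genotypes. Of the 251 genes with an unadjusted p under 0.05 in each, 202 (80.5%) had the same sign. Across the 14414 genes with a mean of at least 1 CPM, which are not independent, the 2 sets of log2 fold changes had a Pearson r of 0.118 and a Spearman correlation of 0.155. A test of whether the age difference itself differed between genotypes called 0 genes by edgeR's quasi-likelihood test, with 1043 (6.84%) at an unadjusted p under 0.05. DESeq2 called 22 in that test. Without OPA1+/+ 6 months replicate 1 the count was 8, and without OPA1+/- 6 months replicate 1 it was 4.

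Clock genes, on lists written with earlier results of these data known, held 2 of the 5 calls. Of all genes tested, 0.0131% passed as higher and 0.0197% as lower. Of the 6 tested activators, 5 were nominally higher at 6 months and 0 passed. Of 14 repressors, 11 were nominally lower and 1 passed, Per3. Of 12 output genes, 9 were nominally lower and 1 passed, Tef. Their median log2 fold changes were 0.26, -0.15 and -0.32, against -0.01 over all genes, of which 48% were above 0. In OPA1+/- the same medians were 0.01, 0.05 and 0.18. The other clock genes are given by role; with all libraries none of them passed.

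Among the activators, Arntl, the partner of CLOCK, read 24.8, 21.1, 12.6 and 12.1 CPM at 3 months and 39.6, 51.1 and 54.2 at 6 months. The groups were well apart, but the 3-month libraries differed among themselves as well (log2 fold change 1.45 ± 0.30, adjusted p = 0.116). Clock itself read 288, 255, 254 and 221 CPM against 308, 342 and 340 (0.38 ± 0.08, adjusted p = 0.0716). It passed without 6 months replicate 1, with an adjusted p of 0.029. Npas2, which can stand in for CLOCK, overlapped, with 9.62, 7.84, 12.2 and 6.16 CPM against 14.3, 10.9 and 11.9. Rora, a nuclear receptor that drives Arntl, differed by 0.14 ± 0.11.

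Among the repressors, Per2 read 60.9, 73.7, 94.0 and 95.8 CPM at 3 months against 41.8, 46.6 and 53.5 (log2 fold change -0.78 ± 0.16, adjusted p = 0.115). Nr1d2 (REV-ERB beta), which silences Arntl, read 173, 177, 165 and 190 CPM against 152, 131 and 134. Its difference was -0.34 ± 0.07 (adjusted p = 0.0848), and it passed without 6 months replicate 1 (adjusted p = 0.024). Bhlhe41 (DEC2), an E-box repressor, read 30.3, 36.7, 33.3 and 42.6 CPM against 25.8, 20.9 and 25.2 (-0.58 ± 0.18, adjusted p = 0.259). These 3 genes and Per3 separated the ages without overlap, 4 of 14 repressors lower against 4.03% of all genes (4.14% were separated the other way). Ciart, another repressor of the loop, overlapped, at 6.38, 7.19, 9.32 and 13.4 CPM against 6.13, 3.87 and 7.45. Per1 and Nr1d1, chosen after their values were seen, did not separate either: Per1 had 94.3, 100, 143 and 146 CPM against 99.9, 83.5 and 98.8, and Nr1d1 differed by 0.22 ± 0.17.

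Among the output factors, Dbp, a partner of Tef in the PAR bZIP family, read 129, 155, 149 and 172 CPM against 111, 88.1 and 109 (log2 fold change -0.56 ± 0.12, adjusted p = 0.116). Hlf, the third member of that family and chosen after its values were seen, did not follow it. Its values were 947, 965, 661 and 679 CPM at 3 months and 912, 1056 and 1029.6 at 6 months. Wee1, the clock-linked mitotic kinase, differed by -0.35 ± 0.18. Tsc22d3 (GILZ), a glucocorticoid target also chosen after its values were seen, read 175, 160, 138 and 228 CPM against 198, 85.1 and 87.1, and here 6 months replicate 1 lay within the 3-month range. Arntl, Per2 and Hlf share a further feature: their 3-month libraries split into replicates 1 and 2 and replicates 3 and 4. Per1 split the same way, as did genes outside the clock lists, such as Mcm6 and Bmp7 below. The first principal component also set replicates 3 and 4 at 3 months apart. The time of day at dissection is not in the labels, and its part in these values was not tested.

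In OPA1+/- the clock genes gave other values. Tef was 340 ± 15.5 CPM at 3 months and 365 ± 32.6 at 6 months (SD, n = 4 each), and Per3 was 313 ± 18.6 and 323 ± 31.5. The test of the difference between genotypes gave a log2 value of -0.55 for Tef and -0.42 for Per3, each with an adjusted p of 0.118, so neither passed. Several genes shared that p, the smallest in that test.

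**Figure D2:**
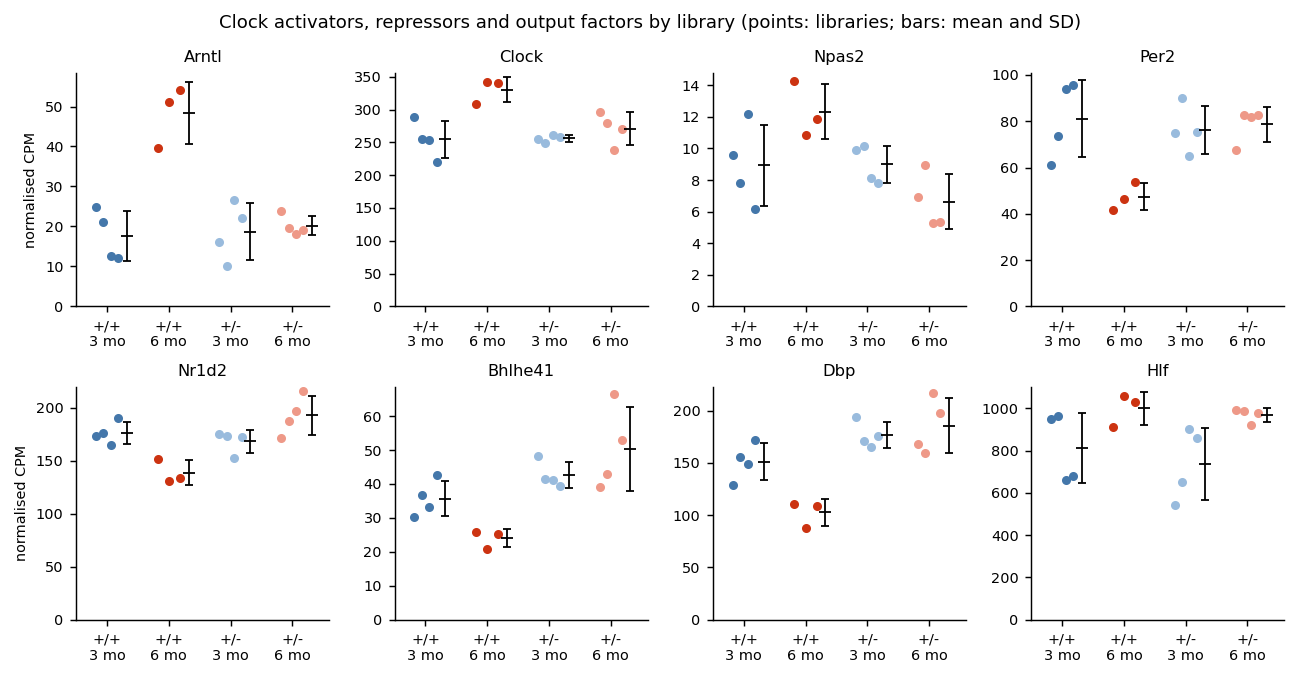
Normalised CPM (y axes, from 0) of 8 clock genes by group (x axes); points are libraries in replicate order, bars the mean and SD. In OPA1+/+ Arntl and Clock are higher at 6 months and Per2, Nr1d2, Bhlhe41 and Dbp lower without overlap, Npas2 and Hlf overlap, and in OPA1+/- the ages overlap for these genes except Hlf, where 4 libraries at 6 months lie above 4 at 3 months.

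The windows just upstream of the 2 called clock genes, Tef and Per3, are printed here with those of the repressors Nr1d2 and Bhlhe41, chosen after their values were seen as examples that separated the ages, because regulators of the loop bind known short motifs. RefSeq promoter windows (GRCm38.p6) were matched by symbol for 24 of the 31 tested genes on the clock lists, and the 250 bases before each start were searched on both strands. The motifs were the E-box CACGTG, bound by CLOCK and ARNTL, the D-boxes TTATGTAA and TTATGCAA, bound by TEF, DBP and HLF, and the half-site AGGTCA, bound by REV-ERB receptors. Matches are in capitals. A match is a description of the letters and not a measured binding site.
Tef, first start (chr15:81802423-81802672, plus strand): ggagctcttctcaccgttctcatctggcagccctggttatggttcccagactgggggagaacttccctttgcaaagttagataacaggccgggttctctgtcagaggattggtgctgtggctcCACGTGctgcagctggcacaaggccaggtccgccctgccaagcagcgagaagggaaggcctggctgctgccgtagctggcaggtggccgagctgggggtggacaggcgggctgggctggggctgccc
Tef, second start (chr15:81811164-81811413, plus strand): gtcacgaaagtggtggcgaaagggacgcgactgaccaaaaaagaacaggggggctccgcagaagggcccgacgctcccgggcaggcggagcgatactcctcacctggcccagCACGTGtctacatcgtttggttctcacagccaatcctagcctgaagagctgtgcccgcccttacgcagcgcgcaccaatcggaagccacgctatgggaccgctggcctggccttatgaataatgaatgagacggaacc
Per3 (chr4:151044666-151044915, minus strand): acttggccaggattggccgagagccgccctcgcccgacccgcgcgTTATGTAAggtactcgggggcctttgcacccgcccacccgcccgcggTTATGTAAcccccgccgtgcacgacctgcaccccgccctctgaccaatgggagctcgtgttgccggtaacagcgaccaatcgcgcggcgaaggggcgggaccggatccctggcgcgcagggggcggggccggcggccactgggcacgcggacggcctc
Nr1d2 (chr14:18239107-18239356, minus strand): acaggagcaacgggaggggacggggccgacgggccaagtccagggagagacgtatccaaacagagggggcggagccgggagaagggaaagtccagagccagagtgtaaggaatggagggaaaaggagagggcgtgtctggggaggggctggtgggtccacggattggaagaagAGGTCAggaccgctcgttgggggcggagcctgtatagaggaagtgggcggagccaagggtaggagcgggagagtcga
Bhlhe41 (chr6:145865421-145865670, minus strand): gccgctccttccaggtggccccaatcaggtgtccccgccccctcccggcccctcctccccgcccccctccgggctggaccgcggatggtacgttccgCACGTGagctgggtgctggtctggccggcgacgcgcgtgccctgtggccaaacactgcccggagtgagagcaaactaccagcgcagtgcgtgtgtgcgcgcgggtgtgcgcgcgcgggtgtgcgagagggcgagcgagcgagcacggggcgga
Each Tef window held 1 E-box, 127 and 138 bases before its start, and the Bhlhe41 window held 1 at 153 bases. The Per3 window held the D-box TTATGTAA 2 times, at 205 and 158 bases, and the Nr1d2 window held 1 AGGTCA at 77 bases. Over all 27025 genes in the table, 6.86% had an E-box in this window, 0.977% had TTATGTAA, 0.83% had TTATGCAA and 15.8% had AGGTCA. On the clock lists 8 of 24 genes had an E-box, 1 had TTATGTAA, 1 had TTATGCAA and 4 had AGGTCA.

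Collagens made up the next block. Of 18 tested fibrillar and network collagens, 15 were nominally lower at 6 months and 0 passed, with a median log2 fold change of -0.26. In OPA1+/- the median was -0.43, and 16 of the 18 had the same sign. At an unadjusted p under 0.05, 9 of the 18 were lower and 0 higher, against 5.42% and 4.82% of all genes. Col11a1, which helps set fibril diameter, read 8.51, 6.75, 5.13 and 8.12 CPM at 3 months and 4.01, 3.42 and 3.72 at 6 months (-0.93 ± 0.19, adjusted p = 0.0671). Col16a1, a collagen that sits on the surface of fibrils, read 39.1, 34.5, 35.6 and 36.3 CPM against 30.6, 28.2 and 21.8 (-0.43 ± 0.09, adjusted p = 0.080). Both separated the ages, and both fell past the threshold in OPA1+/-, by 1.00 and 0.44 on the log2 scale. Col8a2 of Descemet's membrane and Col12a1 separated the ages by smaller amounts, -0.18 ± 0.05 and -0.15 ± 0.06. Col5a2, a regulator of fibril assembly, overlapped at 70.9, 79.2, 60.6 and 85.9 CPM against 61.1, 58.5 and 46.7 (-0.42 ± 0.12). The main chains of stromal collagen, Col1a1 and Col1a2, chosen after their values were seen, differed by -0.28 ± 0.16 and -0.27 ± 0.14 and overlapped. Without 6 months replicate 1, 3 of the 18 passed, all lower, against 0.523% of all genes: Col11a1, Col16a1 and Col3a1. Col3a1, also named after its values were seen, read 13.2, 11.5, 9.0 and 8.21 CPM against 11.4, 2.38 and 3.72. Its log2 fold change was -0.84 ± 0.41 with all libraries and -1.78 without that one (adjusted p = 0.014).

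Genes that make, bind or cut collagen were of mixed sign as lists, and several named members were nominally lower at 6 months. Serpinh1 (HSP47), the collagen chaperone, read 46.0, 45.5, 40.7 and 45.3 CPM against 36.5, 37.1 and 30.8 (-0.35 ± 0.08, adjusted p = 0.0899). Sparc, a collagen-binding glycoprotein, read 239, 240, 238 and 256 CPM against 198, 210 and 190 (-0.29 ± 0.07, adjusted p = 0.116). Mmp2, a gelatinase, read 34.4, 35.8, 30.2 and 33.9 CPM against 28.0, 22.7 and 22.9. Its log2 fold change was -0.45 ± 0.12 (adjusted p = 0.162), and in OPA1+/- it passed at -0.63. Ltbp1, which holds latent TGF beta in the matrix, differed by -0.36 ± 0.10 here and passed at -0.50 in OPA1+/-. Fibrillin-1 (Fbn1) differed by -0.38 ± 0.12, and versican (Vcan), near 1 CPM, by -1.09 ± 0.31. Of 26 collagen processing genes 19 were nominally lower and 7 higher, and of 29 elastic and matricellular genes 18 were lower and 11 higher, with medians of -0.09 and -0.08. In the basement membrane list the median was -0.05. Lama1, a laminin chain, read 4.08, 3.05, 5.21 and 4.62 CPM against 2.95, 1.71 and 2.17, and Col4a1 passed only without 6 months replicate 1 (-0.31, adjusted p = 0.020). Of 23 proteases and inhibitors 14 were nominally lower and 9 higher, among the latter the plasminogen activators Plat (0.44 ± 0.16) and Plau (0.39 ± 0.15). Adamts5, an aggrecanase, was another gene with 6 months replicate 1 near the 3-month values, at 3.32, 4.28, 3.87 and 4.36 CPM against 3.71, 1.86 and 1.55. Serpinh1, Mmp2 and Adamts5 also passed without 6 months replicate 1, all lower, against 0.523% of all genes. The contractile genes Acta2 and Mylk separated the ages, at -0.63 ± 0.20 and -0.26 ± 0.07, in a list of 8 whose median was -0.04.

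Genes on the list of keratocytes and small leucine-rich proteoglycans were nominally lower in 18 of 19 cases, and 0 passed. Their median log2 fold change was -0.15 in both genotypes. The most abundant member of that list, Aldh3a1, also served as a marker of corneal epithelium, so the list is not specific to keratocytes. Angptl7, a secreted protein abundant in the stroma, read 290, 315, 282 and 441 CPM at 3 months and 224, 164 and 126 at 6 months (-0.95 ± 0.23, adjusted p = 0.158). It passed without 6 months replicate 1, at -1.19 (adjusted p = 0.044). The small leucine-rich proteoglycans, which space the fibrils, overlapped between the ages. Biglycan (Bgn) read 121, 119, 102 and 138 CPM against 103, 94.9 and 79.2, decorin (Dcn) differed by -0.25 ± 0.10, lumican (Lum) by -0.30 ± 0.13, and keratocan (Kera, chosen after its values were seen) by -0.21 ± 0.14. Tgfbi, the abundant matrix protein linked to corneal dystrophies, differed by -0.10 ± 0.04 with no overlap. In most of these genes 3 months replicate 3 was the lowest library of its age and 6 months replicate 3 the lowest of all, as for Col1a2, with 486, 509, 406 and 594 CPM against 457, 435 and 347.

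**Figure D3:**
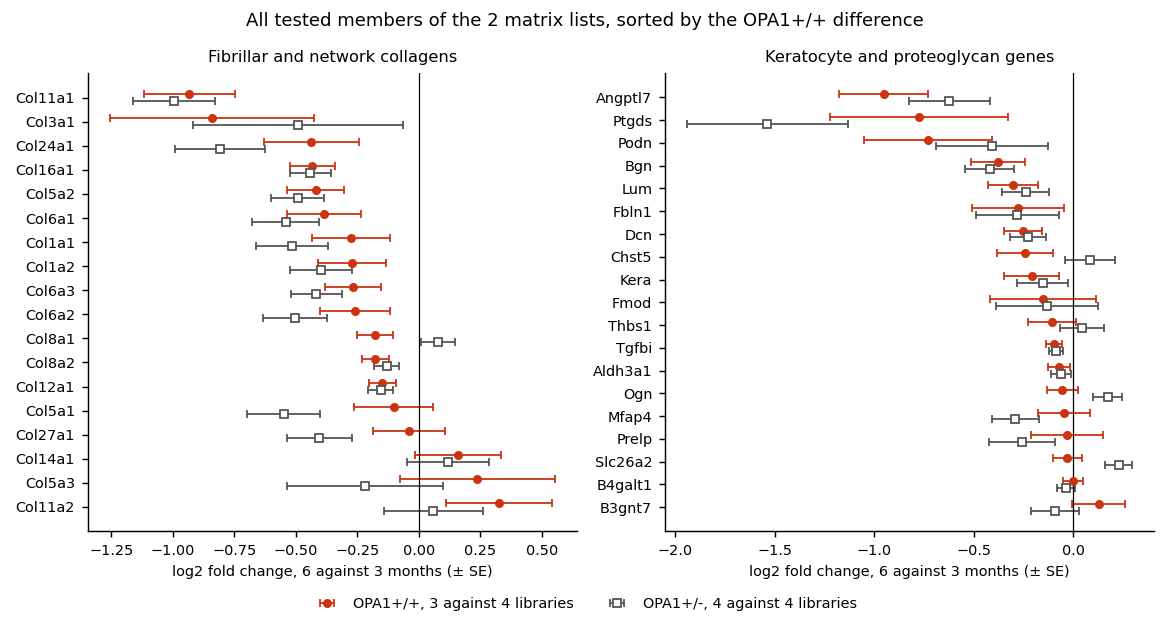
Log2 fold change at 6 against 3 months with its SE (x axes) for every tested collagen (left, 18 genes) and keratocyte or proteoglycan gene (right, 19 genes). OPA1+/+ is drawn as filled circles and OPA1+/- as open squares. Of the collagens 15 lie left of 0 in OPA1+/+ and 16 have the same sign in both genotypes. Of the keratocyte and proteoglycan genes 18 lie left of 0 in OPA1+/+.

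Cell cycle genes differed among the libraries of 1 age as widely as between the ages. All 27 tested replication genes, which load and run the MCM helicase or supply nucleotides, were nominally lower at 6 months, with a median log2 fold change of -0.46 (-0.02 in OPA1+/-). In all 27 the ages overlapped, and 0 passed, with 8 lower at an unadjusted p under 0.05, against 5.42% of all genes. Their summed CPM was 452.1, 517.2, 926.7 and 848.3 at 3 months and 484.2, 496.6 and 557.4 at 6 months, so replicates 1 and 2 at 3 months lay with the 6-month libraries. Mcm6, a helicase subunit, showed the same split at 29.0, 34.8, 78.6 and 70.7 CPM against 30.7, 29.4 and 33.8. Mcm3 read 23.7, 26.9, 61.4 and 61.8 CPM against 23.2, 23.3 and 28.5. The loader Cdc6 and the helicase subunit Gins1 differed by -0.73 ± 0.30 and -0.74 ± 0.27, and the sliding clamp Pcna, chosen after its values were seen, by -0.39 ± 0.17.

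Mitosis and spindle genes stood the other way. Of 34 tested, 33 were nominally higher at 6 months, with a median of 0.25 (0.00 in OPA1+/-), and again 0 passed and all overlapped. At an unadjusted p under 0.05, 6 were higher and 0 lower, against 4.82% and 5.42% of all genes. The summed CPM of the 34 was 1151, 1518, 1368 and 991.6 at 3 months and 1476, 1573 and 1503 at 6 months. The 3-month libraries spread over this range, and replicate 2 lay within the 6-month values. Kif11, the spindle motor, read 23, 29.9, 31.4 and 23 CPM against 29.4, 36.4 and 32.8. Nusap1 and Ube2c differed by 0.36 ± 0.15 and 0.40 ± 0.17, and the proliferation marker Mki67, chosen after its values were seen, by 0.30 ± 0.17. Among regulators of the cycle, Cdk4 was lower in all 6-month libraries (-0.26 ± 0.08, adjusted p = 0.222), and the phosphatase Cdkn3 was higher in all, at 5.11, 5.23, 5.29 and 4.02 CPM against 7.03, 6.17 and 7.29.

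**Figure D4:**
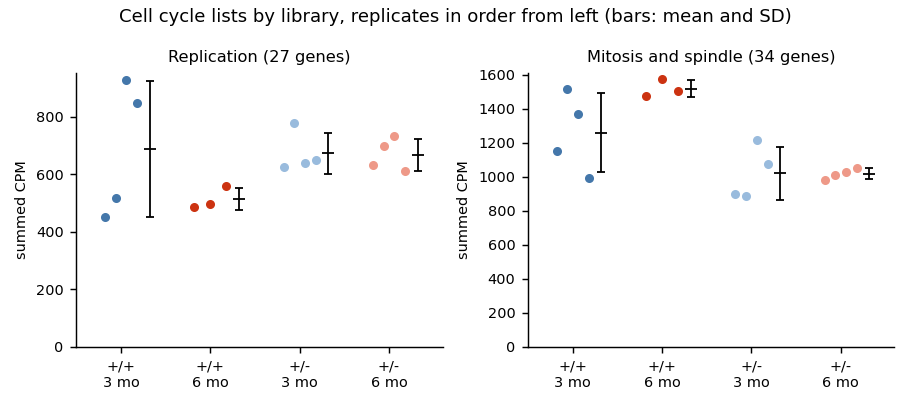
Summed CPM (y axes, from 0) of the 27 replication genes (left) and the 34 mitosis and spindle genes (right) by group (x axes); points are libraries in replicate order, bars the mean and SD. Replication is high in replicates 3 and 4 at 3 months in OPA1+/+ (926.7 and 848.3) and near the 6-month level in replicates 1 and 2; the mitosis sum of the 6-month libraries lies between 1476 and 1573.

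Immediate early genes, which respond within minutes to growth factors, stress or handling, were nominally higher at 6 months in 22 of 23 cases, with a median log2 fold change of 0.28 (0.04 in OPA1+/-). None of the 23 passed with all libraries. At an unadjusted p under 0.05, 10 were higher and 0 lower, against 4.82% and 5.42% of all genes, and 8 of 23 lay above the 3-month range, against 4.14% of all genes. Btg2, an antiproliferative factor, read 33.2, 28.9, 27.3 and 27.5 CPM against 38.3, 42.8 and 39.0 (0.45 ± 0.09, adjusted p = 0.0671). Jund, an AP-1 subunit, read 83.6, 83.1, 82.0 and 94.4 CPM against 96.7, 119 and 106 (0.33 ± 0.07, adjusted p = 0.0671). Jun separated the ages by 0.29 ± 0.07, and 2 members chosen after their values were seen, the phosphatase Dusp1 and Junb, by 0.67 ± 0.23 and 0.23 ± 0.09. Nr4a2 overlapped, at 0.33 ± 0.10. Without 6 months replicate 1, 4 of the 23 passed, all higher, against 0.536% of all genes: Btg2, Jund, Nr4a2 and Ier5. Srf, the factor that drives many of these genes, read 29.3, 29.6, 28.7 and 28.6 CPM against 32.7, 39.1 and 32.9. In OPA1+/- Jund, Jun and Srf had the opposite sign (-0.16, -0.21 and -0.30), and the genotype difference had an adjusted p of 0.118 for each. Of the 23 listed genes, 14 had the same sign in both genotypes. Of 29 heat shock and folding genes 22 were nominally lower, with a median of -0.10, among them the inducible chaperone Hspa1a (-0.32 ± 0.11) and the endoplasmic reticulum isomerase Pdia6 (-0.27 ± 0.09).

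Of the epithelial lists none held a gene past the threshold. The corneal epithelial genes and crystallins had a median of -0.05 over 19 genes, and Krt12 differed by -0.14 ± 0.07 (adjusted p = 0.475). The 14 keratinization genes had a median of -0.21, and the 10 genes of conjunctiva and mucins one of -0.12. Krt16, a keratin of stressed epithelium, had the lowest log2 fold change of all tested genes, -2.12 ± 0.87 (adjusted p = 0.428), with 22.3, 6.90, 29.9 and 1.45 CPM against 3.78, 2.53 and 4.11. Its 3-month libraries thus spread widely around the 6-month ones. Krt7, a keratin of simple epithelia and conjunctiva, read 33.5, 25.6, 40.8 and 43.3 CPM against 28.2, 17.7 and 16.1 (-0.79 ± 0.22, adjusted p = 0.215), and it passed, at -1.08, without 6 months replicate 1. Grhl1, a regulator of epithelial junctions, passed only without 6 months replicate 1 (0.29, adjusted p = 0.043). Dst, which links keratin filaments to hemidesmosomes, read 1635, 1805, 1666 and 1870 CPM against 1593, 1357 and 1339 (-0.29 ± 0.07, adjusted p = 0.105). It too passed without 6 months replicate 1 (-0.37, adjusted p = 0.0198). On the endothelial list the proton transporter Slc4a11 read 166, 173, 158 and 138 CPM against 224, 263 and 244. Its log2 fold change was 0.62 ± 0.15 (adjusted p = 0.175). The 17 tested endothelial genes had a median of -0.07, with 12 nominally lower and 5 higher. Slc4a11 was the 1 gene of them above the 3-month range, against 4.14% of all genes, and 3 lay below it, against 4.03%. Cytokine genes had a median of 0.34 over 16 tested. Of these Cxcl14 (2.30, 1.23, 3.40 and 2.56 CPM against 3.78, 4.53 and 6.21) and Il18 (44.8, 41.9, 31 and 33 against 46.2, 49.7 and 49.9) lay above the 3-month range, 2 of 16 against 4.14% of all genes. Il34 lay below it, 1 of 16 against 4.03%, at 3.06, 2.9, 2.76 and 3.33 CPM against 2.72, 2.53 and 1.86, and Il1rn overlapped. None of the 20 tested macrophage and dendritic cell genes had an unadjusted p under 0.05, nor did any of 40 interferon response genes.

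In the signalling lists 0 genes passed. Genes of the Notch, Hedgehog and FGF list were nominally higher in 16 cases and lower in 10, and those of the EGF and IGF list in 14 and 10. Among 29 TGF beta and BMP genes, 15 were nominally higher and 14 lower. Bmp7 read 12.6, 12.5, 18.5 and 18 CPM against 10.1, 9.52 and 10.3 (-0.63 ± 0.14, adjusted p = 0.0917), and Bmp6 read 3.40, 2.54, 2.13 and 2.99 against 5.14, 5.35 and 3.96 (0.81 ± 0.20, adjusted p = 0.138). These ligands of the same family thus stood in opposite directions, neither past the threshold. The coreceptor Tgfbr3 and the ligand Bmp3 differed by -0.24 ± 0.06 and -0.31 ± 0.08. Among 31 Wnt genes, 14 were nominally higher and 17 lower. The secreted inhibitor Dkk1 read 7.83, 6.61, 8.29 and 8.04 CPM against 7.11, 4.53 and 4.81, and it passed without 6 months replicate 1 (-0.71, adjusted p = 0.024) and in OPA1+/- (-0.71). The ligands Wnt4 and Wnt7b and the receptor Fzd5 separated the ages by 0.15 ± 0.05, 0.18 ± 0.07 and 0.20 ± 0.07. In OPA1+/- each had the opposite sign (-0.10, -0.11 and -0.14). Of the 31 Wnt genes, 5 lay above the 3-month range, against 4.14% of all genes, and 1 lay below it, against 4.03%. Among 35 axon guidance genes, 17 were nominally higher and 18 lower. Plxna2, a semaphorin receptor, read 159, 155, 143 and 150 CPM against 128, 131 and 117 (-0.28 ± 0.07, adjusted p = 0.130), and Unc5b and Slit3 differed by -0.36 ± 0.13 and -0.37 ± 0.14. The mechanosensitive channel Piezo1 read 224, 216, 211 and 221 CPM against 234, 239 and 240 (0.13 ± 0.04). The receptors Lifr (-0.22 ± 0.07) and Adgrf4 (0.42 ± 0.09) also separated the ages, and Piezo1, Lifr and Adgrf4 each had the opposite sign in OPA1+/-.

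None of the listed genes of the mitochondrion, where OPA1 acts, passed the threshold. The median log2 fold change was 0.01 over 26 genes of fusion, fission and cristae, -0.03 over 36 of complex I, -0.07 over 41 of complexes II to V and -0.01 over 77 of the mitochondrial ribosome. The 9 tested genes encoded in the mitochondrial genome lay further from 0, with a median of 0.10 (0.09 in OPA1+/-). Of them 6 were nominally higher and 3 lower. At an unadjusted p under 0.05, 1 was lower and 0 higher, against 5.42% and 4.82% of all genes. Summed CPM of the 15 listed genes was 28161 to 30968 at 3 months and 27650 to 29613 at 6 months. Pink1, the kinase that marks damaged mitochondria, read 79.3, 79.1, 67.4 and 74.6 CPM against 86.7, 89.6 and 84.2 (0.21 ± 0.06, adjusted p = 0.196). The large and small subunit ribosomal proteins had medians of 0.03 and 0.02, and Schwann cell and myelin genes -0.07 over 12. Only 2 of 22 neuronal and axonal genes reached the count minimum; the cell bodies of corneal nerves lie outside the cornea.

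**Figure D5:**
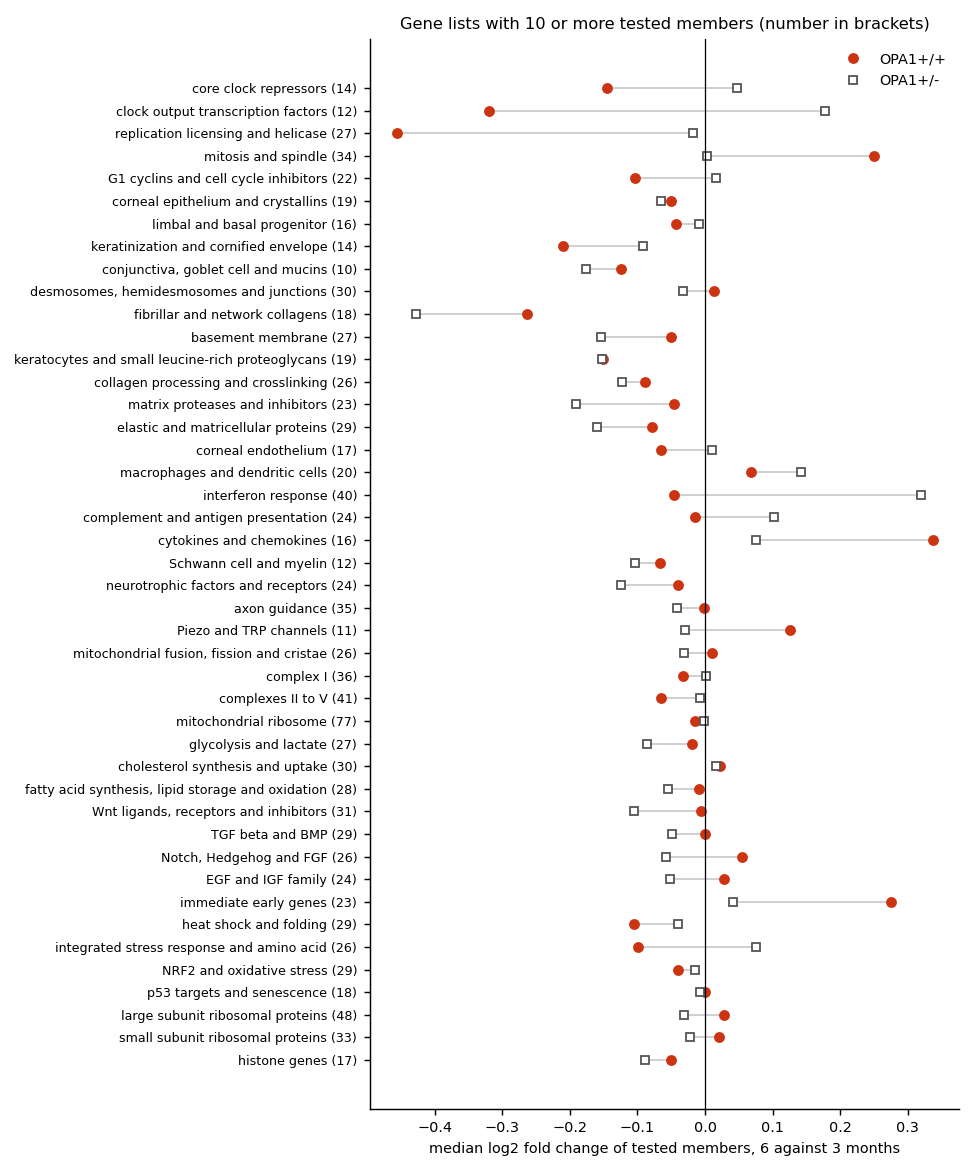
Median log2 fold change at 6 against 3 months (x axis) over the tested members of each list with 10 or more of them (y axis, number tested in brackets), OPA1+/+ as filled circles and OPA1+/- as open squares; lists of other tissues are not drawn. Of the lists drawn, in OPA1+/+ replication (-0.46), clock output (-0.32) and collagens (-0.26) lie lowest and cytokines (0.34), immediate early genes (0.28) and mitosis (0.25) highest.

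Markers of neighbouring tissues were checked in the same libraries. The rod transducin Gnat1 read 27 CPM in OPA1+/+ 6 months replicate 1 and 1.34 to 3.41 in the other 6. All 10 tested retina genes of 18 listed were nominally higher at 6 months. Without that library 7 of them could be tested, of which 6 were nominally lower, Gnat1 among them (-0.90), and 1 higher. Lens genes summed to 7.90 to 29.4 CPM at 3 months and 7.03 to 14.8 at 6 months. Genes of blood and vessels, with 7 of 16 tested, summed to 83.1 to 104 and 88.2 to 96.2 CPM, and the hemoglobin genes did not reach the count minimum. In skeletal muscle 1 of 14 did. The part of these tissues in the differences above was not tested.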

How the data were processed

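RNA of mouse corneas was ribosome-depleted and sequenced as directional libraries with single-end reads, per the labels' protocols (RIN above 8.8). The authors counted reads per gene with featureCounts 2.0.1 over exons of GENCODE vM28, reverse-stranded, per the file headers. The deposited values are raw counts. The submitters' processing notes name mm10 and DESeq2; GENCODE vM28 is built on another mouse assembly, so coordinates are given as the files print them. No label or header names the aligner. Names came from a table matching 52081 of 55357 identifiers (94.1%).

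Counts were fitted with edgeR 4.0.16 in R 4.3.3 (TMM scaling, robust quasi-likelihood, group means of all 15 libraries, 11 residual degrees of freedom). The OPA1+/- libraries entered to share the spread. Genes had 10 or more counts in 3 or more of the 7 OPA1+/+ libraries. P-values were adjusted by Benjamini-Hochberg over all 15258 genes, at 0.05. Normalised CPM of single genes uses TMM library sizes, and summed CPM of lists uses total counts. The SE is the log2 fold change divided by the root of the F statistic. The count floor covers counting error only.

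Genes were named by rule: the targeted gene, called genes, those with the smallest p, and the members of each list with the smallest p; exceptions are marked. The members and lists were chosen with earlier results of these data known. DESeq2 1.42.0, limma 3.58.1, other filters, covariates and left-out libraries were alternatives. Scripts were tested on simulated data. Some results are not reported here.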

Additional observations from a re-analysis of the deposited data

Results flagged for a closer look

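Among the reported genes, single libraries of OPA1+/+ at 3 months stood apart from the other 3 by a gap test that flags about 1 group of 4 in 20 by chance; groups of 3 were not tested. Rora was 156.6 CPM in replicate 3 against 203.2 to 205.3. Serpinh1 was 40.66 in replicate 3 against 45.31 to 45.95. Sparc was 255.7 in replicate 4 against 237.7 to 239.7, Jund 94.38 against 81.96 to 83.57, Cdkn3 4.018 against 5.106 to 5.29, and Mgp 20.94 against 15.32 to 16.19, all in replicate 4. Grhl1 was 176.9 in replicate 2 against 163.9 to 164.8, and Hspa1a 126.8 against 144.5 to 147.4.

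In the OPA1+/- libraries, summed CPM of retina genes was 206.2 in 3 months replicate 4 against 17.8 to 26.73, and 35.24 in 6 months replicate 4 against 18.27 to 20.36. Summed CPM of replication genes was 778.5 in 3 months replicate 2 against 625.0 to 647.5.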

How the results depend on the processing

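The count of 5 genes in OPA1+/+ (2 higher, 3 lower) became 8 (5 higher) with DESeq2 size factors, 121 (71 and 50) with DESeq2, 11 (7 higher) with limma voom, 105 (65 and 40) with no filter on low counts, and 141 (77 and 64) without the 2 libraries with retina transcripts, an alternative chosen after seeing the data. It became 2 (1 and 1) in a fit of the 7 libraries alone, and 0 (0 and 0) with a clock score as covariate or with a log2 fold change minimum of 0.5. Leaving out each library in turn gave 0 to 160 genes, 0 to 81 higher and 0 to 79 lower. In OPA1+/- the count of 15 became 71 with DESeq2, 35 with voom, 83 with no filter, 32 in a fit of its own libraries, 4 with a Y-linked covariate, 1 with the clock covariate, 0 with the fold change minimum, 5 without the libraries with retina transcripts, and 1 to 23 with each library left out. The genotype difference of 0 genes became 22 with DESeq2, 19 with no filter, 9 without the libraries with retina transcripts, and 0 to 8 with each library left out. The cause of these shifts was not tested.

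Same-numbered libraries had correlated deviations of 0.191, 0.0257 and 0.125. Among the 6-month libraries, replicates 1, 2 and 3 at 3 months each correlated best with their own number, as a hint from the data only. With the replicate number as a block, 0 genes passed in OPA1+/+ (0 higher, 0 lower) and 3 in OPA1+/-. The numbers do not pair the samples in the labels. All 5 genes kept their direction in every alternative run in which they were checked. Tef and Per3, themselves clock genes, were not checked with the clock score, nor Csmd2 with DESeq2. With each library left out in turn, Opa1 ranged from -0.0139 (without OPA1+/+ 6 months replicate 3) to 0.056, and Gnat1 from -0.903 (without OPA1+/+ 6 months replicate 1) to 2.43. With both retina-bearing libraries out, Gnat1 was -0.897. The clock score itself separates the ages in OPA1+/+ (-3.112 to -2.364 at 3 months, -1.772 to -1.506 at 6 months), so a fit with it has little age difference left to test and says nothing on stability. It turned the sign of Dst (0.0659), Plau (-0.0848), Gins1 (0.0596), Mki67 (-0.0358), Il18 (-0.0233) and Unc5b (0.192). DESeq2 gave no adjusted p for Csmd2. Scaling moved the median of all genes by less than the threshold of 0.1 on the log2 scale.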
